A study of Homo sapiens with 6 samples.

Results

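The unfolded protein response and its ATF4 branch were followed in xenograft tumors through 34 genes out of 60671 annotated genes in the expression matrix. The genes were taken by name, and each matched a single row through its Ensembl identifier. They were placed in 4 classes by known role: 15 chaperones and folding factors of the endoplasmic reticulum (ER), 4 genes of ER-associated degradation (ERAD), 5 stress sensors and transcription factors, and 10 targets of ATF4. RNA was sequenced from 6 tumor samples, 3 of the tumor core (TC) and 3 of the tumor margin (TM). Both groups came from wild-type (WT) MDA-MB-231 cells, an established human triple-negative breast cancer line, that had been injected orthotopically with Matrigel into the mammary fat pad of female NSG (NOD/SCID/IL2Rγ-null) mice aged 6 to 8 weeks. The zone of the tumor is the one difference between the groups that the labels name. The study profiled both zones to follow how metabolism varies within a tumor. The host lacks lymphocytes but still supplies its own stroma, vessels and myeloid cells, and the labels do not say which core and margin samples came from one animal.

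Proteins that enter the secretory pathway fold in the ER with the help of chaperones such as BiP (HSPA5), which bind unfolded chains, and of disulfide isomerases, which form and rearrange their disulfide bonds. When unfolded chains accumulate, the sensors IRE1 (ERN1), PERK (EIF2AK3) and ATF6 signal to the nucleus. ATF6 and spliced XBP1 raise chaperone and ERAD genes, whereas PERK phosphorylates the translation initiation factor eIF2, which favors synthesis of ATF4. ATF4 in turn raises genes for amino acid supply and for the stress response. Because the kinase GCN2 phosphorylates eIF2 when amino acids run short, ATF4 targets can change without the chaperones, and the classes were therefore also compared with each other.

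The promoters of the classes carry different sequence motifs, and a few are shown because they set the chaperones and the ATF4 targets apart. Promoter sequences of 300 bases (250 before and 50 from the annotated start, RefSeq, GRCh38.p14) were matched for 33 of the 34 genes. The ER stress element (ERSE), searched on both strands as CCAAT and CCACG with any 9 bases between them, was found in 5 of 14 chaperone promoters (HSPA5, HSP90B1, CALR, CANX and CRELD2), in that of XBP1, and in 0 of 10 ATF4 target promoters. It was present in 0.0806% of 27305 promoters of all genes. Its shorter form ERSE-II, searched as ATTGG and CCACG with any base between them, was found in HYOU1, SDF2L1 and HERPUD1 and in 0.0549% of all promoters. The CARE motif bound by ATF4, searched as TGATGNAA, was found in 3 of 10 ATF4 target promoters (CHAC1, ASNS and SLC3A2), in HERPUD1, and in 3.67% of all promoters. Sites are printed 5′ to 3′ so that the motif reads forward, with the motif in capitals and 5 flanking bases on each side.
HSPA5 ERSE: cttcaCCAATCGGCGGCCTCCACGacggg
HSP90B1 ERSE: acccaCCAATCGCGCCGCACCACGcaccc
XBP1 ERSE: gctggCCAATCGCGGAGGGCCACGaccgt
HYOU1 ERSE-II, far: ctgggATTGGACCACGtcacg
HYOU1 ERSE-II, near: tactcATTGGACCACGtccca
HERPUD1 ERSE-II: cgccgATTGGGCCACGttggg
HERPUD1 CARE: cgggcTGATGCAAcccgc
CHAC1 CARE: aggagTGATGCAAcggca
ASNS CARE: aggcaTGATGAAActtcc

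The printed stretches lie at chr9:125241386-125241414 (minus strand) for HSPA5, chr12:103930316-103930344 (minus) for HSP90B1 and chr22:28800598-28800626 (minus) for XBP1. Those of HYOU1 lie at chr11:119057375-119057395 and chr11:119057269-119057289 (both plus). For HERPUD1 they lie at chr16:56932020-56932040 (plus) and chr16:56931961-56931978 (minus), for CHAC1 at chr15:40953257-40953274 (minus) and for ASNS at chr7:97872464-97872481 (minus). All lie before the RefSeq start of their gene. The far ERSE-II of HYOU1 overlaps a further match, TGACGTGG (the UPRE, bound by XBP1 and ATF6), which 0.795% of all promoters hold. HERPUD1, an ERAD gene, was the single member with both an ERSE-type and a CARE match. A match is a description of these letters, not evidence that a factor was bound.

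Values were in TPM, a transcript level corrected for length and scaled to a fixed total, so levels can be compared between genes. TPM keeps no read depth, and precision rests on the spread between samples alone. TM replicate 3 had a total of 994381 TPM, against 1000000 in the other samples, and 4 loci outside the annotation above 0, against 203 to 214. Since TM replicate 3 stood apart in this way, values without it are given beside the results that it turned or moved most. Genes that MDA-MB-231 cells are known to express were present in each sample, with VIM at 3797 to 5283 TPM, CD44 at 197 to 267 and EGFR at 42.1 to 62.8, and ESR1 and PGR did not exceed 0.22 TPM. ERBB2 was at 22.3 to 40.7 TPM. Summed markers of 2 host tissues were high in TM replicates 1 and 2 but not in TM replicate 3. The 8 fibroblast markers summed to 65.7 to 224 TPM in TC and to 476, 1004 and 89.0 in TM replicates 1, 2 and 3. The 8 skeletal muscle markers summed to 3.68 to 7.39 in TC and to 165, 436 and 1.69 in TM. COL1A1 and COL1A2 made up most of the fibroblast sum in each sample. COL3A1 and POSTN were also higher in TM replicates 1 and 2 than in TM replicate 3. PDGFRB did not share this pattern, at 3.45, 4.95 and 3.9 TPM in TM replicates 1, 2 and 3. The fibroblast genes DCN, LUM and PDGFRA averaged under 1 TPM. So did the muscle gene MB, which was at 0 in each TM sample. The summed ranges of 8 macrophage markers (95.0 to 106 in TC, 102 to 108 in TM) and of 6 endothelial markers (3.77 to 4.99 and 3.93 to 7.02) overlapped. CD68 alone, at 84.8 to 94.2 TPM, made up most of the macrophage sum. Of the macrophage markers 5 averaged under 1 TPM, as did 5 of the endothelial markers. The sums of 5 adipocyte markers did not exceed 0.77 TPM in any sample, and those of 5 erythroid markers did not exceed 6.93. The part of host RNA in the values below was not tested.

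**Figure D1:**
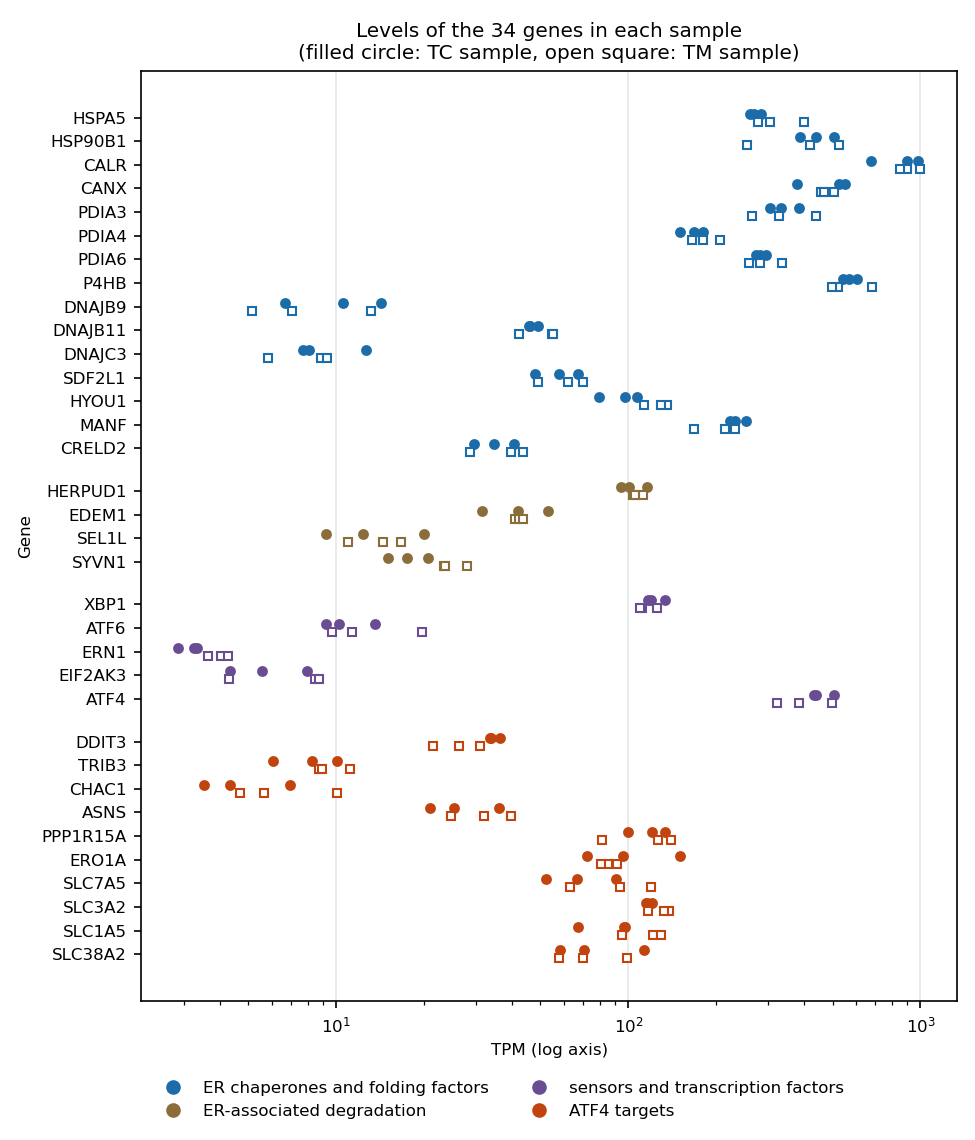
Level of each of the 34 genes in TPM on a log axis, with TC samples as filled circles and TM samples as open squares, colored by class. Levels ran from ERN1 at 2.88 to 4.25 TPM to CALR at 679 to 996 TPM, and the TC and TM values of 30 genes overlapped.

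Expression of the genes ran from low to high, from ERN1, above 22.3% of the 13861 tested genes, to CALR. Most chaperones were among the abundant transcripts of these tumors. CALR had the highest mean, 885 TPM, above 98.8% of the 13861 tested genes, followed by P4HB (570), CANX (481), ATF4 (430) and HSP90B1 (422). The 15 chaperones together took 0.368% to 0.439% of all TPM in each sample and the 10 ATF4 targets 0.0620% to 0.0743%. The sensors were low. ERN1 averaged 3.57 TPM, EIF2AK3 6.54 and ATF6 12.3, whereas the transcription factors XBP1 and ATF4 averaged 119 and 430.

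The zones were compared with limma on log2(TPM + 1). The model was fitted to all 13861 genes that reached 1 TPM in 3 samples or more, a filter that all 34 genes passed. Differences are TC minus TM on this scale, which understates the change of low genes. With the threshold for a call set at an adjusted p-value of 0.05, 0 of the 34 genes were called by limma. Their unadjusted p-value was under 0.05 in 3 cases. Over all tested genes 0.137% were called, and 16.2% had an unadjusted p-value under 0.05. The smallest adjusted p-value among the 34 was 0.227 (limma). The 3 genes were DDIT3, with higher values in TC (background 1.93% of all tested genes), and HYOU1 and SYVN1, with lower ones (background 14.2%). A p-value above the threshold does not show that the zones were alike. TC and TM values did not overlap for 4 of the 34 genes (background 22.2%), DDIT3 with higher values in TC (background 3.28%) and HYOU1, SYVN1 and ERN1 with lower ones (background 18.9%). Differences were below 0 for 21 of the 34 genes, against 67.0% of all tested genes. The median difference of the 34 genes was -0.064 and that of all tested genes -0.14. Without TM replicate 3 the differences of HSP90B1, CANX, PDIA3, PDIA6, P4HB, ATF6 and SLC38A2 changed sign, and 24 of the 34 genes lay below 0. In bulk tissue fewer cells of a type and less RNA per cell cannot be told apart.

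On TPM without rescaling, the intervals of the fit bounded most of the differences. For 32 of the 34 genes the 95% interval of the difference lay within a 2-fold change in either direction, the exceptions being DNAJB9 and CHAC1, which are both low. For 15 genes, 10 of them chaperones, it lay within 1.5-fold. The difference was smaller than its own standard error in 21 genes. Intervals are those of single genes and were not widened for the number of genes. They do not cover the choice of scaling either. Median-of-ratios rescaling moved the median difference of the chaperones from -0.035 to 0.18.

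**Figure D2:**
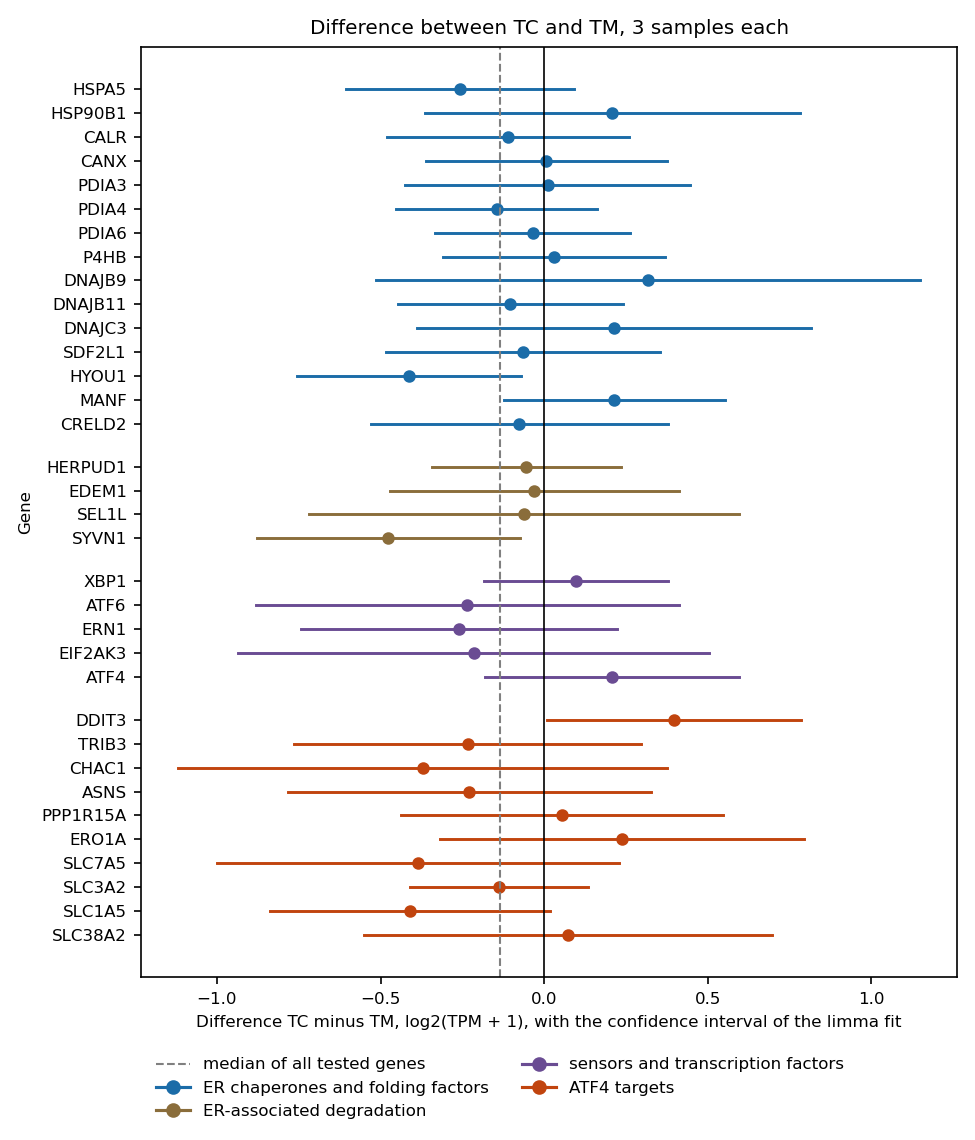
Difference TC minus TM in log2(TPM + 1) for each gene with the 95% interval of the limma fit (3 samples a group), the dashed line marking the median of all tested genes at -0.14. The intervals of HYOU1, SYVN1 and DDIT3 exclude 0, those of the other 31 genes include it.

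Among the chaperones 8 of 15 differences were below 0 and 7 above, with a median of -0.035. Without TM replicate 3, 11 lay below 0 and 4 above, with a median of -0.10. Without TC replicate 1, and also without TM replicate 2, 6 lay below 0 and 9 above, with medians of 0.024 and 0.049. In all samples, averaged over the 15 genes, log2(TPM + 1) came to 7.10 ± 0.037 for the TC samples and to 7.11 ± 0.107 for the TM samples (SD, n = 3). HYOU1, an ER chaperone of the HSP70 family that acts as a nucleotide exchange factor for BiP and is also named for its induction by hypoxia, had TC values of 97.6, 107 and 79.5 TPM (replicates 1, 2 and 3, an order kept throughout) and TM values of 113, 136 and 129. Every TC sample lay below every TM sample. The log2 difference was -0.41 (SE 0.15, limma unadjusted p = 0.0238, adjusted p = 0.227). It was -0.39 without TM replicate 3, and -0.20 after median-of-ratios rescaling, where the unadjusted p-value was 0.241 (limma). The unadjusted p-value was also above 0.05 without TC replicate 3, without TM replicate 2 and without a mean-variance trend in the fit.

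HSPA5 (BiP), the master chaperone of the ER, was at 261, 284 and 270 TPM in TC and at 279, 306 and 401 in TM. TM replicate 3 was the highest and the groups overlapped at TC replicate 2 and TM replicate 1. Its log2 difference was -0.26 (SE 0.15, 95% interval -0.60 to 0.092, limma adjusted p = 0.472) and became -0.10 without TM replicate 3. HSP90B1 (GRP94), the HSP90 of the ER, was at 507, 440 and 386 TPM in TC and at 525, 419 and 254 in TM. Here TM replicate 3 was the lowest sample, and the log2 difference turned from 0.21 (SE 0.25, limma adjusted p = 0.750) to -0.085 without it. The ratio of HSPA5 to HSP90B1 within a sample, chosen after these values were seen and independent of the scaling of the samples, was 0.516 to 0.730 in 5 samples and 1.58 in TM replicate 3. Both genes carry an ERSE in the promoter, as shown above.

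The lectin chaperones CALR and CANX, which hold glycoproteins during folding, had log2 differences of -0.11 and 0.0069. For the disulfide isomerases PDIA3, PDIA4, PDIA6 and P4HB the log2 differences lay between -0.14 and 0.031, and each interval stayed within 1.5-fold. Without TM replicate 3 they lay between -0.16 and 0.070. MANF, a secreted ER stress protein, was at 222, 232 and 252 TPM in TC and at 214, 232 and 167 in TM. Its log2 difference of 0.21 (SE 0.15) reached an unadjusted p-value of 0.0362 after median-of-ratios rescaling (limma, log2 difference 0.42, adjusted p = 0.333) and became 0.078 without TM replicate 3. SDF2L1 (-0.066) and CRELD2 (-0.076), both ER-resident stress proteins, had log2 differences smaller than their standard errors, which became -0.21 and -0.25 without TM replicate 3.

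The J-domain proteins, which hand substrates to BiP, were split by level. DNAJB9, known for its role in feedback on IRE1, was at 14.2, 10.6 and 6.69 TPM in TC and at 7.05, 5.13 and 13.2 in TM, and the groups overlapped almost fully. It had the widest interval of the 34 genes, -0.52 to 1.15 around a log2 difference of 0.32. Single samples moved this value to 0.65 (without TM replicate 3, limma unadjusted p = 0.0748), 0.58 (without TC replicate 3), 0.087 (without TC replicate 1) and 0.050 (without TM replicate 2). DNAJC3 was also low, with a mean of 8.72 TPM and a log2 difference of 0.21, or 0.028 without TM replicate 3. DNAJB11 was at 42.2 to 55.3 TPM with a log2 difference of -0.10, or -0.23 without TM replicate 3. DNAJB9 overlaps PNPLA8 and THAP5 on the opposite strand, at up to 8.35 and 4.59 TPM, and DNAJB11 overlaps the same-strand gene ENSG00000283149 at up to 31.7 TPM, so reads can have been shared.

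**Figure D3:**
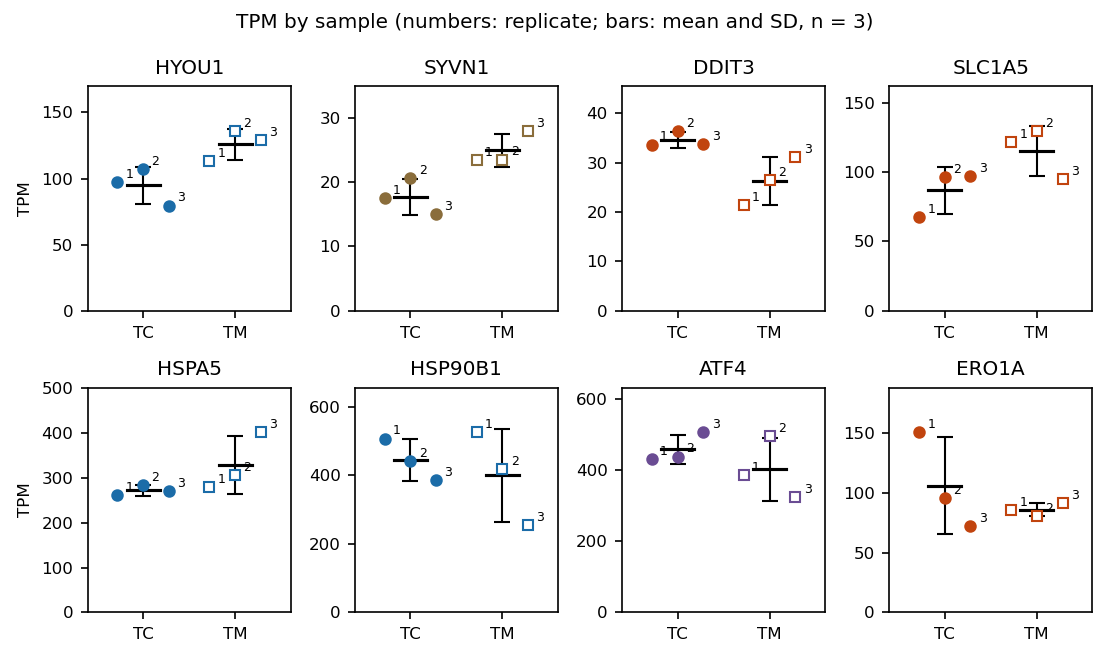
TPM in each sample for 8 genes, with the replicate number beside each point and bars for the mean and SD (n = 3). HYOU1 and SYVN1 were lower and DDIT3 higher in each TC sample than in each TM sample, while HSPA5 and HSP90B1 were at their extremes (401 and 254 TPM) in TM replicate 3.

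All 4 ERAD genes had differences below 0, and the interval of SYVN1 alone excluded it. SYVN1 (HRD1), the ubiquitin ligase at the center of the ERAD complex, was at 17.5, 20.6 and 15.1 TPM in TC and at 23.4, 23.5 and 27.9 in TM. The groups did not overlap. The log2 difference was -0.48 (SE 0.18, 95% interval -0.88 to -0.073, limma unadjusted p = 0.0258, adjusted p = 0.235). Under median-of-ratios rescaling it was -0.28 (limma unadjusted p = 0.161), and without TC replicate 1, TC replicate 3 or TM replicate 3 its unadjusted p-value also exceeded 0.05. The same held after quantile normalization and with the replicate number as a block. SYVN1 overlaps FAU on the same strand and MRPL49 on the other, at up to 1594 and 59.7 TPM, so a few shared reads could move it. SEL1L, its partner in the complex, had a log2 difference of -0.062 (SE 0.29), HERPUD1, which helps to assemble the complex, -0.055 (SE 0.13), and EDEM1, which directs misfolded glycoproteins to it, -0.030 (SE 0.19). All 4 genes were at their lowest in TC replicate 3, and without it 3 of the 4 differences lay above 0, with a median of 0.083. After median-of-ratios rescaling, and also after quantile normalization, 3 of the 4 lay above 0.

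Among the sensors and transcription factors none had an unadjusted p-value under 0.05. ERN1 (IRE1), the kinase and RNase that splices XBP1 mRNA, was at 3.33, 2.88 and 3.26 TPM in TC and at 3.64, 4.04 and 4.25 in TM. The groups did not overlap, yet at this low level the log2 difference of -0.26 had an interval that includes 0 (-0.74 to 0.22, limma adjusted p = 0.613). ATF6 was highest in TM replicate 3 (19.7 TPM, against 9.20 to 13.6 in the other samples), with a log2 difference of -0.24 (SE 0.28) that turned to 0.049 without that sample. EIF2AK3 (PERK) varied 2.04-fold between its highest and lowest sample, both in TM, with a log2 difference of -0.22 (SE 0.31), or -0.060 without TM replicate 3.

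XBP1 was one of the steadiest of the 34 genes, at 119, 117 and 134 TPM in TC and at 111, 125 and 109 in TM. Its log2 difference was 0.097 (SE 0.12, 95% interval -0.18 to 0.38, limma adjusted p = 0.766). Values are summed over transcripts, so spliced and unspliced XBP1 cannot be told apart. ATF4 was at 431, 438 and 505 TPM in TC and at 385, 496 and 324 in TM. TM replicate 3 was the lowest, TM replicate 2 lay within the TC range, and the log2 difference was 0.21 (SE 0.17, limma adjusted p = 0.614), or 0.063 without TM replicate 3. ATF4 is controlled mainly at translation, which RNA levels do not show.

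The ATF4 targets had differences of both signs, with 4 of 10 differences above and 6 below 0 and a median of -0.18. DDIT3 (CHOP), a transcription factor linked to cell death under lasting ER stress, had the largest positive difference of the 34 genes. It was at 33.6, 36.4 and 33.7 TPM in TC and at 21.4, 26.4 and 31.1 in TM. Every TC sample lay above every TM sample, and the 3 TC values were close together (34.6 ± 1.57, SD, n = 3). The log2 difference was 0.40 (SE 0.17, 95% interval 0.0074 to 0.79, limma unadjusted p = 0.0467, adjusted p = 0.301). It was 0.60 after median-of-ratios rescaling and 0.56 after quantile normalization, with adjusted p-values of 0.2697 and 0.286 (limma). Without TM replicate 3 it was 0.52 (limma adjusted p = 0.159), but with any one of the other 5 samples left out its unadjusted p-value exceeded 0.05. The same held with the replicate number as a block, without a mean-variance trend in the fit and without mitochondrially encoded genes. DDIT3 overlaps MARS1 and MBD6 on the opposite strand, at up to 225 and 22.8 TPM. Reads from the genes could not be told apart if the counting ignored strand. Relative to ATF4, the TPM of DDIT3 was 0.0781, 0.0831 and 0.0667 in the TC samples, and the TM samples had ratios of 0.0555, 0.0532 and 0.0962. TM replicate 3 had the highest ratio of the 6 samples, while the other TM ratios lay below every TC ratio. The means were 0.0760 in TC and 0.0683 in TM, so the ratio did not part the groups.

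Other stress genes of the class did not share the pattern of DDIT3. TRIB3, a pseudokinase induced downstream of ATF4 and CHOP, was at 6.05 to 10.0 TPM in TC and 8.74 to 11.2 in TM (log2 difference -0.23, SE 0.23). CHAC1, which degrades glutathione, was at 4.33, 3.53 and 6.96 TPM in TC and at 5.65, 10.0 and 4.66 in TM (log2 difference -0.37, SE 0.33). Leaving out TM replicate 3 gave -0.57, and leaving out TM replicate 2 gave -0.088. PPP1R15A (GADD34), which directs the phosphatase that restores eIF2, had a log2 difference of 0.054 (SE 0.21), or 0.21 without TM replicate 3.

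ERO1A, the oxidase that recharges disulfide isomerases and that hypoxia also induces, was at 151, 95.8 and 72.1 TPM in TC and at 85.3, 80.9 and 91.6 in TM. TC replicate 1 alone was far above the TM samples, and TC replicate 3 was the lowest of all. The log2 difference was 0.24 (SE 0.24, limma adjusted p = 0.694) and became -0.045 without TC replicate 1. Beside it, 9 of 10 hypoxia-induced genes had differences above 0 (median 0.30), with 2 at an unadjusted p-value under 0.05 and 0 called (limma). Of all tested genes 67.0% had differences below 0, 1.93% were higher at that threshold and 0.137% were called. Without TM replicate 3 all 10 lay above 0 (median 0.62), with 5 at an unadjusted p-value under 0.05 (limma). In that fit 2663 of the 13861 tested genes were at this threshold, 87.2% of them lower in TC. Without TM replicate 1, and also without TC replicate 2, 7 of 10 lay above 0 (medians 0.15 and 0.20). In each of these 2 fits 1 of the 10 was at the threshold (limma), beside 1643 and 1581 of all tested genes. Summed, the 10 hypoxia-induced genes reached 1455, 1647 and 959 TPM in the TC samples. In the TM samples they reached 857, 952 and 1774 TPM, TM replicate 3 being the highest. The part of hypoxia in the ERO1A values was not tested.

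ASNS, which makes asparagine and is a classical ATF4 target, was at 25.4, 20.9 and 36.0 TPM in TC and at 39.5, 32.0 and 24.8 in TM. The groups overlapped widely, and the log2 difference of -0.23 was smaller than its SE of 0.24 (limma adjusted p = 0.709). Leaving out single samples gave -0.40 (TM replicate 3), -0.070 (TM replicate 1) and -0.058 (TC replicate 2). The gene ENSG00000284707 overlaps ASNS on the same strand at up to 22.1 TPM, so its level is uncertain.

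Of the 4 amino acid transporters in the class, 3 had differences below 0, all but SLC38A2, against 67.0% of all tested genes. SLC1A5 (ASCT2), a glutamine transporter, was at 67.4, 96.4 and 97.1 TPM in TC and at 122, 130 and 95.0 in TM. Only TM replicate 3 lay within the TC range. The log2 difference was -0.41 (SE 0.19, limma unadjusted p = 0.0585, adjusted p = 0.334), and -0.54 without TM replicate 3 (limma unadjusted p = 0.0167, adjusted p = 0.167). It was -0.24 without TC replicate 1 (limma unadjusted p = 0.205) and -0.20 after median-of-ratios rescaling (limma unadjusted p = 0.382). SLC7A5 (LAT1), which imports leucine, was at 66.9, 52.1 and 90.4 TPM in TC and at 93.7, 120 and 63.2 in TM, with TM replicate 3 again the exception. Its log2 difference was -0.39 (SE 0.27, limma adjusted p = 0.550), and -0.63 without TM replicate 3 (limma unadjusted p = 0.0245, adjusted p = 0.190). It was -0.18 without TM replicate 2 and also after median-of-ratios rescaling. SLC3A2 (CD98), the heavy chain that carries SLC7A5 to the membrane, was at 115 to 138 TPM, the smallest ratio of highest to lowest sample among the 34 genes (1.20). For the TC samples the TPM ratio of SLC7A5 to SLC3A2 was 0.580, 0.454 and 0.753, and for the TM samples it was 0.802, 0.870 and 0.479, so the groups overlapped. SLC38A2 (SNAT2), an importer of neutral amino acids, had a log2 difference of 0.074 (SE 0.27), which turned to -0.097 without TM replicate 3 and to -0.19 without TC replicate 1.

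The chaperones were then compared with the ATF4 targets inside each sample, as the mean log2(TPM + 1) of the 15 chaperones minus that of the 10 targets. A common scaling of a sample nearly cancels in this contrast. The TC samples gave 1.62, 1.75 and 1.45 and the TM samples 1.54, 1.48 and 1.54. TC replicates 1 and 2 lay above and TC replicate 3 below all TM samples. The means were 1.61 ± 0.151 and 1.52 ± 0.0347 (SD, n = 3), and their difference of 0.087 was smaller than the spread within TC. The difference was 0.12 with ERO1A left out of the targets, 0.022 with the co-chaperones and secreted factors left out of the chaperones, 0.090 after median-of-ratios rescaling and 0.0029 after quantile normalization. Leaving out TC replicate 2 gave 0.016 and leaving out TC replicate 3 gave 0.17. No test was applied to this score, since the members had been chosen with results known. Taken singly, the class medians of the chaperones and of the ATF4 targets turned above 0 under median-of-ratios rescaling, but not under quantile normalization. The first moved the median of all tested genes from -0.14 to 0.049. There 13 of 15 chaperones and 5 of 10 ATF4 targets had differences above 0, with medians of 0.18 and 0.024. After quantile normalization these counts were 7 and 4, as without rescaling, with medians of -0.045 and -0.060.

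**Figure D4:**
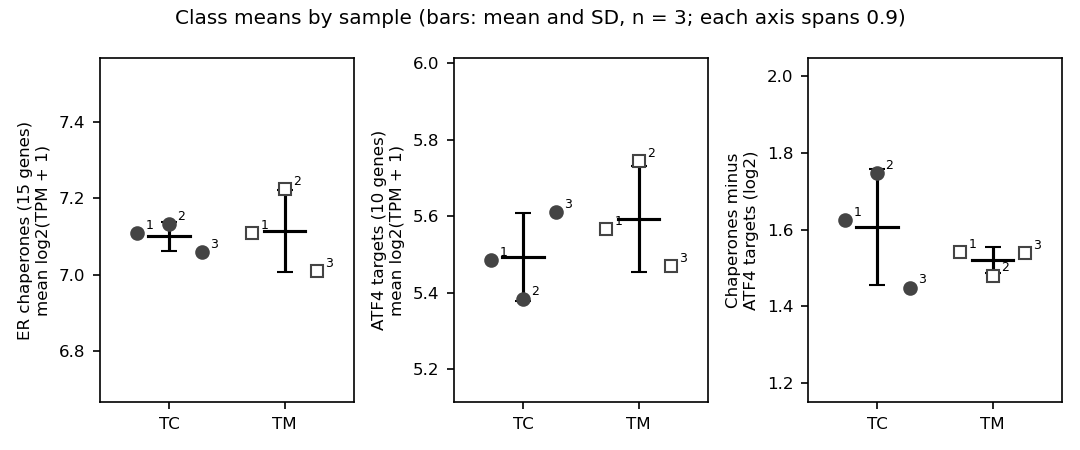
Mean log2(TPM + 1) of the 15 chaperones and of the 10 ATF4 targets in each sample, and the difference between the means, with replicate numbers and bars for the mean and SD (n = 3). The contrast spanned 1.45 to 1.75 in TC, a range that holds all 3 TM values.

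The extremes of the 34 genes were spread unevenly over the samples. TM replicate 2 held the highest value of 13 of the 34 genes, including 8 of 15 chaperones and 5 of 10 ATF4 targets, and TM replicate 3 the lowest of 10, including 7 chaperones. TM replicate 2 was also the sample with the highest sums of fibroblast and muscle markers (1004 and 436 TPM), whose part in these values was not tested. TC replicate 3 was lowest in 8 of the 34 genes, among them all 4 ERAD genes.

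**Figure D5:**
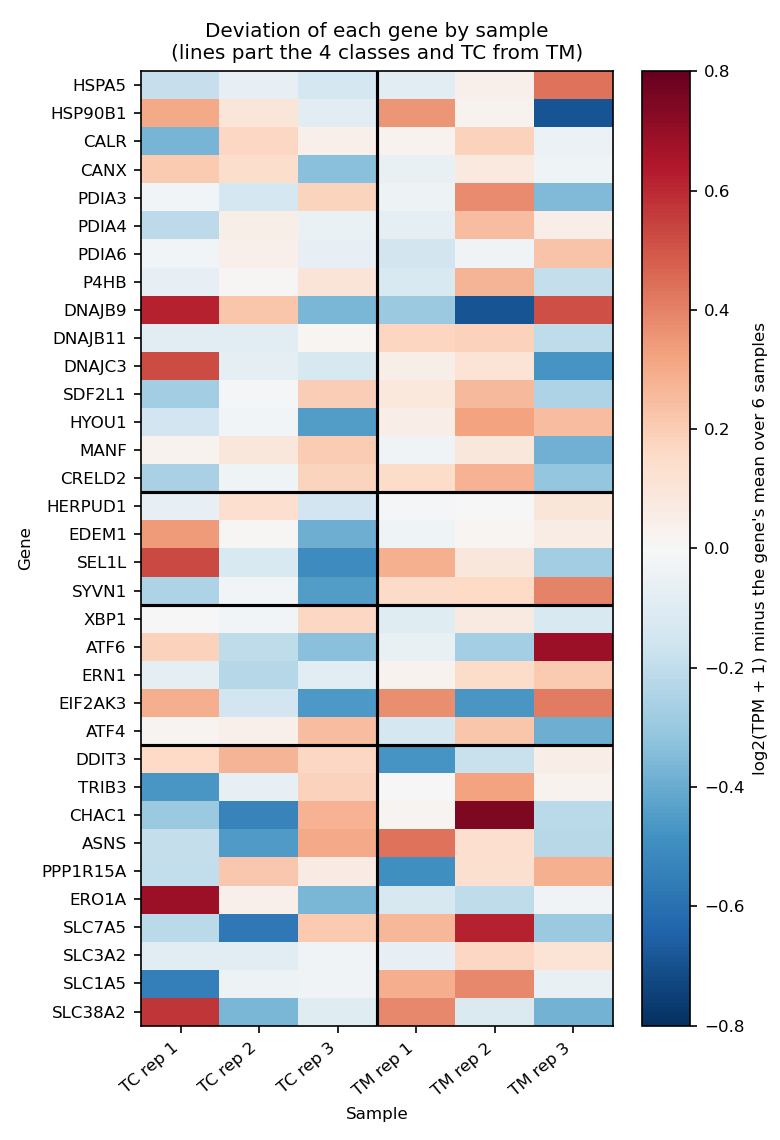
Deviation of each gene in each sample from its mean over the 6 samples, in log2(TPM + 1), with red above and blue below the mean and lines parting the classes and the zones. TM replicate 2 was the highest sample for 13 genes and TM replicate 3 the lowest for 10.

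Other genes of the pathway were examined in 4 lists, and 0 of their members were called (limma). The lists are therefore read at an unadjusted p-value under 0.05, against the backgrounds of 1.93% (higher) and 14.2% (lower) of all tested genes. These backgrounds hold for the main fit alone. After median-of-ratios rescaling 1873 of the 13861 tested genes were at that threshold, 49.6% of them lower in TC. With one sample left out 1581 to 2663 genes were at it, 82.0% to 89.9% of them lower. Of 44 other genes of ER protein entry and folding, 25 had differences above 0 and 19 below, against 67.0% of all tested genes below 0. At that threshold 1 had higher and 5 had lower TC values. After median-of-ratios rescaling these counts were 10 and 1, and without TM replicate 2 the lower count was 2. FKBP11, a prolyl isomerase of the secretory pathway, showed the largest difference. It was at 3.11, 1.54 and 3.64 TPM in TC and at 10.5, 11.1 and 10.2 in TM, and the 3 TM samples, including TM replicate 3, lay close together. The log2 difference was -1.67 (SE 0.27, limma adjusted p = 0.0658). Adjusted p-values were 0.0592 to 0.234 over the alternatives (limma), a range that leaves out the other empirical Bayes settings. STT3A, the catalytic subunit of the oligosaccharyltransferase, was at 69.2, 89.5 and 55.2 TPM in TC and at 103, 105 and 121 in TM (log2 difference -0.64, limma adjusted p = 0.148). SEC61A1, the pore of the translocon, had a log2 difference of -0.32 (limma adjusted p = 0.206), and -0.11 after median-of-ratios rescaling. HSPA13, an HSP70-like protein of the microsomes, was the one gene of the list with higher values at the unadjusted threshold. It was at 33.3, 25.8 and 23.0 TPM in TC and at 17.3, 16.4 and 19.7 in TM (log2 difference 0.58, SE 0.18, limma adjusted p = 0.178).

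Of 19 other ERAD genes tested, 2 had higher and 1 had lower TC values at the same threshold. The counts were 2 and 0 after median-of-ratios rescaling and 1 and 3 without TM replicate 3. VCP (p97), the ATPase that pulls proteins out of the ER membrane, was at 175, 166 and 184 TPM in TC and at 242, 271 and 234 in TM. The groups did not overlap, and the difference was -0.50 on the log2 scale (SE 0.12, limma adjusted p = 0.0989). It became -0.29 after median-of-ratios rescaling (limma unadjusted p = 0.0862, adjusted p = 0.430). SELENOK and SELENOS, small selenoproteins of the ERAD complex, had log2 differences of 0.38 and 0.36, with limma adjusted p-values of 0.239 and 0.260.

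Among 32 other ATF4 targets tested, 26 had differences below 0 and 6 above, against 67.0% of all tested genes below 0. At the same threshold 0 were higher and 4 lower. The median was -0.19, beside -0.14 for all tested genes, and after median-of-ratios rescaling 16 lay on each side, with 1 higher and 0 lower at the threshold. With one sample left out the lower count ranged from 1 (without TM replicate 1) to 6 (without TM replicate 3). VEGFA was counted here and also among the hypoxia-induced genes. SLC7A1, a transporter of cationic amino acids, was at 26.3, 24.2 and 24.5 TPM in TC and at 41.0, 39.4 and 30.8 in TM (log2 difference -0.54, SE 0.16, limma adjusted p = 0.152). AARS1, the alanyl-tRNA synthetase, and GPT2, an alanine transaminase of mitochondria, had log2 differences of -0.46 and -0.43, with limma adjusted p-values of 0.243 and 0.255. The unadjusted p-values of AARS1 and GPT2 were 0.141 and 0.164 after median-of-ratios rescaling (limma). Of 31 genes of the eIF2 module and other regulators, 0 were higher and 4 lower at that threshold, and 1 and 1 after median-of-ratios rescaling. With one sample left out the lower count ranged from 2 (without TM replicate 1) to 6 (without TM replicate 3). GCN1, the activator of the amino acid sensor GCN2, was at 31.6, 28.9 and 33.8 TPM in TC and at 80.1, 49.8 and 59.0 in TM. Every TM sample lay above every TC sample (log2 difference -0.95, SE 0.19, limma adjusted p = 0.0843). The adjusted p-value ranged from 0.0665 to 0.299 over the alternatives (limma), the other empirical Bayes settings again left out. QRICH1, a regulator of transcription under ER stress, and TRAF2, an adaptor that binds IRE1, had log2 differences of -0.52 and -0.53, with limma adjusted p-values of 0.137 and 0.187. Their unadjusted p-values were 0.0843 and 0.0706 after median-of-ratios rescaling (limma).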

How the data were processed

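RNA-seq was measured in 3 TC and 3 TM samples. The authors deposited a matrix of TPM per gene, one column a sample. By the study's methods, reads of TruSeq libraries were trimmed (SeqPrep, Sickle), aligned (HISAT2), assembled (StringTie) and quantified per gene (RSEM). The submitters' processing notes name hg38 as build. The annotation release and tool versions are not given in the sources used here, and no step that parts mouse from human reads is described. TPM keeps no depth, so the study's DESeq2 model was not used. Depth per sample is unknown. Other value columns in the matrix: 0.

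Groups and replicate numbers came from the sample titles. Symbols were found for 60647 of 60671 annotated genes, and 259 unannotated loci were left out. Gene overlaps were taken from GENCODE 29 (GRCh38). Genes that reached 1 TPM in 3 samples or more were compared on log2(TPM + 1) with limma 3.58.1 in R 4.3.3 (empirical Bayes with a mean-variance trend, two-sided), with Benjamini-Hochberg adjustment over all tested genes. The study gives 3 mice per group, but the labels do not tie samples to animals, so p-values measure only the spread between these samples.

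The members and lists were chosen with earlier results of these data known. Values in every sample are given for members with an unadjusted p-value under 0.05, the 3 largest differences in each direction, and HSPA5, HSP90B1, XBP1, ATF4, DDIT3, ASNS and ERO1A. Further members printed by sample were chosen after their values were seen. From the other lists up to 3 genes in each direction at that threshold are named. Alternatives were a pseudocount of 0.1, no filter, a mean of at least 5 TPM, median-of-ratios and quantile scaling, the replicate number as a block, TPM recomputed after removal of mitochondrially encoded genes, other empirical Bayes settings, changed classes and leaving out each sample. Figures were drawn with matplotlib 3.10.9.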

Additional observations from a re-analysis of the deposited data

How the results depend on the processing

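None of the 34 genes was called under any alternative run (limma). The 19 calls over all genes became 7 with a pseudocount of 0.1, 1 without a filter, 6 after median-of-ratios scaling, 4 after quantile normalization, 12 without a trend, 47 with robust moderation, and 1 to 17 when one sample was left out (1 without TC replicate 3 or TM replicate 1, 4 without TC replicate 1, 9 without TM replicate 2). Genes of the 34 with an unadjusted p-value under 0.05 numbered 1 higher and 2 lower in TC. The higher count was 2 after median-of-ratios scaling, 0 without mitochondrially encoded genes, 0 without a trend and 0 to 1 when one sample was left out (0 without any TC sample in turn or TM replicate 1; ATF4 in place of DDIT3 without TM replicate 2). The lower count was 0 after median-of-ratios scaling, 1 after quantile normalization, 1 without a trend and 0 to 3 when one sample was left out (0 without TC replicate 3). The median of the chaperones moved from -0.035 to 0.18 after median-of-ratios scaling. It lay between -0.10 (without TM replicate 3) and 0.049 (without TM replicate 2) when one sample was left out. HSP90B1 turned to -0.085 without TM replicate 3 and ERO1A to -0.045 without TC replicate 1, the range over the samples left out being -0.085 to 0.44 and -0.045 to 0.48. With the replicate number as a block, 1 gene was called over all genes, and of the 34 genes 0 were higher and 1 was lower at an unadjusted p-value under 0.05. Deviations of samples that share a number correlated at 0.21, -0.12 and -0.16 over genes, so the numbers were not taken as pairs. TC replicates 1, 2 and 3 correlated best with TM replicates 1, 3 and 2 (0.21, 0.15 and 0.32). Whether those samples came from one tumor was not tested. The study used paired tests for core against margin in other assays, so the unpaired fit may leave out a real pairing. The cause of the changes between settings was not tested. TPM gives no depth, which limits what can be said of ERN1, EIF2AK3, CHAC1 and DNAJB9.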
